A study of Mus musculus with 13 samples.

Results

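The 7 genes described here, Scx, Mkx, Tnmd, Thbs4, Fmod, Kera and Chad, are genes of tendon. They were taken from the deposited count table by matching the Ensembl identifier of each row to the mouse symbol, which gave 7 rows of 55357. The RNA came from tails of mice with lymphedema, in which lymph drains poorly and the tissue swells. There were 6 samples labelled TNTProx1 and 7 labelled TNTSham, all taken at day 28 after TNT from animals 12 weeks old. TNT is known as tissue nanotransfection, which moves nucleic acids into skin with a brief electric field, and Prox1 encodes the transcription factor that gives lymphatic endothelial cells their identity. The sources used here give neither strain, construct, nor the content of the sham, and do not say that each sample is a separate animal, so p-values measure the spread between these samples. All samples share the lymphedema and the TNT procedure, and no sample of an untreated tail is among them.

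The tail of the mouse carries long bundles of tendon that run from muscle to the vertebrae. Tendon is made by tenocytes, which lay down parallel fibrils of type I collagen. Scx, a basic helix-loop-helix transcription factor, marks tendon progenitors and tenocytes. Mkx, a homeobox transcription factor, is needed for tendon collagen fibrils to grow to their normal size in mice. Tnmd encodes tenomodulin, a type II membrane protein that depends on Scx in developing tendon. Thbs4 encodes a thrombospondin of the tendon and muscle matrix. Fmod, Kera and Chad encode fibromodulin, keratocan and chondroadherin, secreted proteins built of leucine-rich repeats. Several of these genes are also active elsewhere, Kera in the cornea and Fmod and Chad in cartilage, so none of them counts tendon cells by itself. In bulk tissue, fewer cells of a type and less RNA per cell cannot be told apart.

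All 7 genes were detected in all 13 libraries and all 7 passed the filter on low counts. Scx had the fewest reads, 31 to 156 per library, and Fmod the most, 46461 to 82485. Together the 7 genes took 0.205 to 0.414% of counts in TNTProx1 and 0.220 to 0.299% in TNTSham. Levels are given as CPM, which scales counts to library size, and genes are compared with each other only in TPM, which also divides by exon length. The annotation used for lengths places Scx inside the gene Bop1 and Chad inside a stretch that overlaps Acsf2, each on the opposite strand and without shared exons. Mkx overlaps a same-strand transcript, AC148004.2, counted at 0.355 CPM. The library kit marks strand, but no source used here states the strand setting of the counting, so reads from introns of Bop1 could be counted on Scx. Bop1, a ribosome biogenesis gene, had 29.1 ± 6.36 CPM in TNTProx1 and 22.2 ± 1.80 CPM in TNTSham (SD, n = 6 and 7), far more than Scx. Its log2 fold change of TNTProx1 over TNTSham was 0.39 ± 0.13 (SE, with adjusted p = 0.217 by edgeR), beside 0.40 for Scx. The part of Bop1 in the Scx value was not tested.

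Libraries held 40.4M ± 5.08M counts in TNTProx1 and 36.7M ± 6.32M in TNTSham (SD, n = 6 and 7; M, mega), within a range of 29.7M to 48.0M. TNTProx1 4, 5 and 6 lay far from the other 10 libraries along the leading principal axis, computed from the 1000 most variable genes and carrying 69.6% of their variance. Malat1, a nuclear RNA, was at 3410.1 to 3538.9 CPM in these 3 libraries and at 8978.8 to 16813.7 CPM in the other 10. Values without these 3 libraries are also given for the 7 genes and for several of the lists. Prox1, the gene in the group label, had 18.7 to 72.9 CPM in TNTProx1 and 23.4 to 33.1 CPM in TNTSham, so its level did not separate the groups. Of 22876 genes tested with edgeR's quasi-likelihood method, 0 had an adjusted p under 0.05, a background of 0.0%. An unadjusted p under 0.05 was found for 12.2% of them, with 8.33% higher and 3.92% lower in TNTProx1.

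Ordered by level per length, the matrix genes led and the transcription factors came last. Fmod had the highest level, at 1931.7 ± 735 TPM in TNTProx1 and 1602.6 ± 214 TPM in TNTSham (SD, n = 6 and 7), and only 39 tested genes of known length had a higher mean TPM. Thbs4 followed at 964 ± 519 TPM in TNTProx1 and 898 ± 262 TPM in TNTSham. Tnmd stood at 478 ± 85.4 TPM in TNTProx1 and 424 ± 48.4 TPM in TNTSham, above 98.9% of tested genes.

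Chad was at 150 ± 63.4 TPM in TNTProx1 and 129 ± 15.5 TPM in TNTSham. Kera was at 79.5 ± 35.2 TPM in TNTProx1 and 106 ± 19.2 TPM in TNTSham. Chad lay above Kera in 11 of 13 libraries, and these neighbours were not separated by their spread. Every other neighbouring pair in the order kept its order in 13 of 13 libraries, although Thbs4 was only 1.08 times Tnmd in the library where they were closest.

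Mkx had 32.9 ± 11.5 TPM in TNTProx1 and 30.2 ± 7.41 TPM in TNTSham. Scx had 4.58 ± 1.38 TPM in TNTProx1 and 3.41 ± 1.26 TPM in TNTSham, and 27.4% of tested genes had a lower TPM.

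**Figure D1:**
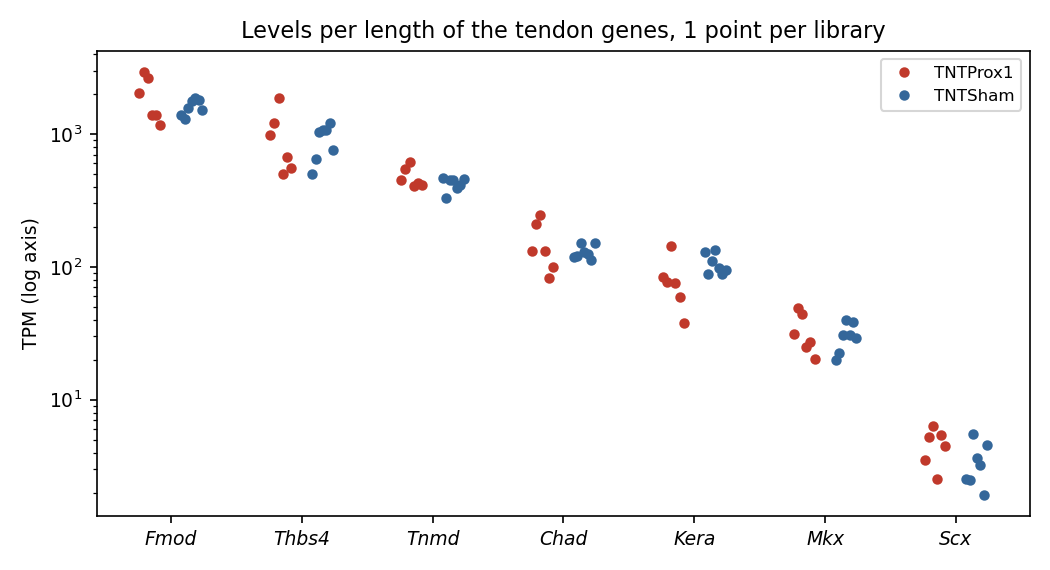
Level per length (TPM, log axis) of the 7 tendon genes, with TNTProx1 left of TNTSham and 1 point per library. Fmod is highest, at 1169.9 to 2934.4 TPM over the 13 libraries, and Scx lowest, at 1.93 to 6.29 TPM.

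The sequences upstream of the transcription start are shown for 4 of the genes, since Scx and other basic helix-loop-helix factors bind the E-box, CANNTG. Of the 7 genes, 5 had an entry in the RefSeq promoter table, on the build GRCm38.p6, an older build than the GRCm39 of the counts. The stretch for Kera lay inside an exon of the GENCODE annotation and is not shown. Each stretch runs 5′ to 3′ on the strand of its gene through the bases before the start, less any that GENCODE places in an exon, with E-boxes in capitals. Tnmd is at chrX:133850758-133850979 (plus strand), Thbs4 at chr13:92794819-92795068 (minus strand), Fmod at chr1:134037004-134037253 (plus strand) and Chad at chr11:94564797-94565046 (plus strand).
Tnmd: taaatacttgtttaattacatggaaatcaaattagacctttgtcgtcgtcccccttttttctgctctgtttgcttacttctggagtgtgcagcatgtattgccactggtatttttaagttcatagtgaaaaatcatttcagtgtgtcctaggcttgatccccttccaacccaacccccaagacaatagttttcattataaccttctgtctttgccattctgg
Thbs4: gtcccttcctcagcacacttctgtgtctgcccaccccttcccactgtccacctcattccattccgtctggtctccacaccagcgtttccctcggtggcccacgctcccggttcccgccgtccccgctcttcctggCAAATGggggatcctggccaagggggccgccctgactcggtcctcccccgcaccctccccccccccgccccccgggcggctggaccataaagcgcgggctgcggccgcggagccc
Fmod: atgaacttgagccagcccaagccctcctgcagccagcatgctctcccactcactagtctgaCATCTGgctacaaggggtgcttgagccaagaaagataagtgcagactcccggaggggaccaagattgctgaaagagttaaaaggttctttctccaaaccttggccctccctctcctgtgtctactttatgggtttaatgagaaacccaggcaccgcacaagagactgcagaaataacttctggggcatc
Chad: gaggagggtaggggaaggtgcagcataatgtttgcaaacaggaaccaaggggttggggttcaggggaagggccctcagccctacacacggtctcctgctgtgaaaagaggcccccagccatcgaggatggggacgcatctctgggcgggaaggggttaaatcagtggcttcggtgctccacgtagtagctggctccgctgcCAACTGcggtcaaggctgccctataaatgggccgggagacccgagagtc
The stretches of Thbs4, Fmod and Chad held 1 CANNTG each and that of Tnmd, 222 bases long, held 0. CANNTG reads the same on both strands, and 66.2% of 32851 promoter windows of 250 bases, or 62.4% at 222 bases, held at least 1. TATAAA, searched on both strands and unable to overlap the E-box, was found in the stretch of Chad and in 12.4% of windows of 250 bases. A match is a description of these letters and not of a bound site.

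The comparison of TNTProx1 with TNTSham asks whether tail tissue treated under the Prox1 label differed in tendon genes. None of the 7 passed the test. By edgeR's quasi-likelihood test 0 of 7 had an adjusted p under 0.05, against 0.0% of all tested genes, and 1, Kera, had an unadjusted p under 0.05, where the background was 12.2% in either direction. DESeq2 called 0 of 7, against 2.91% of the genes it tested (2.13% higher and 0.783% lower), and limma voom with quality weights called 0 of 7, against 2.5%. The fitted fold was above 1 for 6 genes and below 1 for Kera, and 47.7% of all tested genes had a fold above 1. The median log2 fold change of the 7 was 0.14, beside -0.02 over all tested genes. It was -0.022 without TNTProx1 3, 0.31 without TNTProx1 4 to 6 and 0.39 by limma voom with quality weights, so 1 library turned its sign. In none of the 7 did the groups separate. Over all tested genes, all TNTProx1 libraries lay above all TNTSham libraries in 0.398% and below them in 0.214%.

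In the fit of all 13 libraries the 95% interval of the fold reached no higher than 1.31 for Tnmd and Mkx, 1.41 for Fmod, 1.42 for Chad and 1.47 for Thbs4. For Scx it ran from 0.859 to 2.03, the widest of the 7. The lowest lower limit was that of Kera, 0.529. These limits depend on the libraries kept. Without TNTProx1 4 to 6 the upper limit was 1.33 for Tnmd, 1.51 for Mkx, 1.62 for Fmod, 1.66 for Chad and 1.89 for Thbs4. Without TNTProx1 3 the lower limit of Kera was 0.476.

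**Figure D2:**
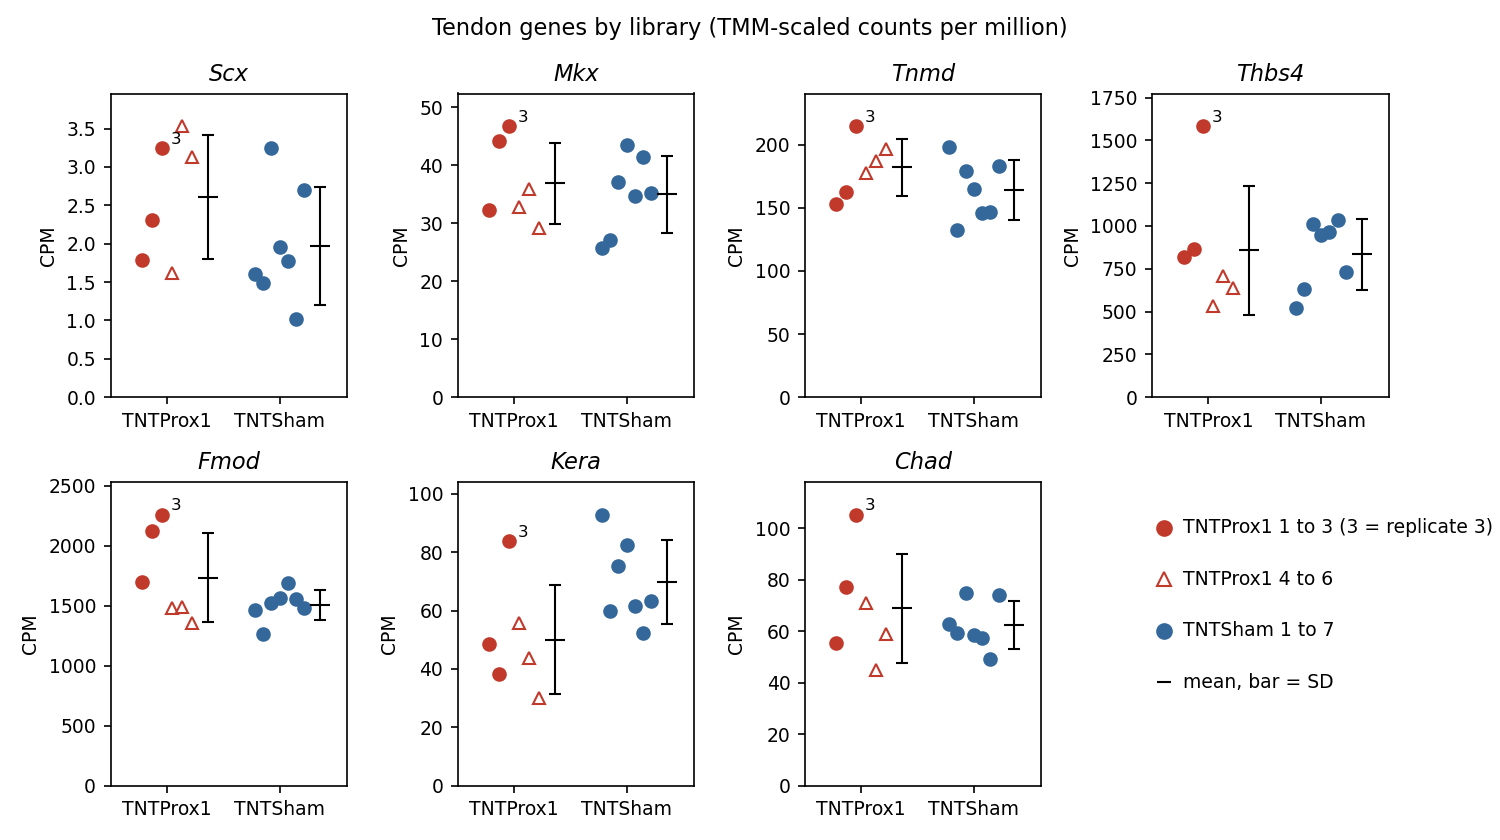
CPM of each tendon gene in each library, with TNTProx1 left of TNTSham, open triangles for TNTProx1 4 to 6 and black bars for mean and SD. The groups overlap for every gene, and TNTProx1 3 is the highest of 13 libraries for Mkx, Tnmd, Thbs4, Fmod and Chad.

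Of the transcription factors, Scx (ENSMUSG00000034161.9) ran from 1.62 through a median of 2.72 to 3.53 CPM in TNTProx1. In TNTSham it ran from 1.01 through a median of 1.78 to 3.25 CPM. Of 6 TNTProx1 libraries 5 lay above the TNTSham median and 2 above its highest value, so the groups overlapped over most of their range. The log2 fold change was 0.40 ± 0.29 (SE, with adjusted p = 0.623 by edgeR), and 0.31 ± 0.33 without TNTProx1 4 to 6 (SE, with adjusted p = 0.638 by edgeR). Scx varied more between TNTSham libraries than 81.3% of tested genes, with a coefficient of variation of 38.8%. A part of Bop1 reads in these Scx values was not tested.

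Mkx (ENSMUSG00000061013.7) ran from 29.2 through a median of 34.3 to 46.7 CPM in TNTProx1 and from 25.7 through 35.2 to 43.5 CPM in TNTSham. The medians were within 1 SD of each other and 3 of 6 TNTProx1 libraries lay on each side of the TNTSham median. Its log2 fold change was 0.08 ± 0.15 (SE, with adjusted p = 0.858 by edgeR). It was -0.022 ± 0.15 without TNTProx1 3 and 0.23 ± 0.17 without TNTProx1 4 to 6 (SE, with adjusted p = 0.959 and 0.469 by edgeR).

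Tnmd (ENSMUSG00000031250.9), the membrane protein, ran from 153 through a median of 182 to 215 CPM in TNTProx1. In TNTSham it ran from 132 through a median of 165 to 198 CPM. Only TNTProx1 3 lay above the TNTSham range and no library lay below it. Its log2 fold change was 0.15 ± 0.11 (SE, with adjusted p = 0.640 by edgeR), and this standard error was smaller than that of all but 14.3% of tested genes. Without TNTProx1 4 to 6 the log2 fold change was 0.10 ± 0.14 (SE, with adjusted p = 0.732 by edgeR). Tnmd lies on the X chromosome. TNTSham 1 was the library with Xist, the RNA of the inactive X chromosome, at 2094.8 CPM, against 2.01 CPM or less in the other 12. It also had the highest Tnmd of its group, 198 CPM, and without it the log2 fold change was 0.20 ± 0.11 (SE, with adjusted p = 0.503 by edgeR). The same library had the highest Kera of all 13, 92.9 CPM, and the lowest Mkx and Thbs4, 25.7 and 518 CPM. Those genes lie on other chromosomes. A part of the X chromosome in the Tnmd values was not tested.

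Thbs4 (ENSMUSG00000021702.8), the thrombospondin, ran from 532 through a median of 764 to 1583.5 CPM in TNTProx1. In TNTSham it ran from 518 through a median of 944 to 1037.4 CPM. The median was lower in TNTProx1 and the highest value was also in TNTProx1. TNTProx1 3 stood at 1583.5 CPM and the other 5 at 532 to 865 CPM. The log2 fold change was 0.04 ± 0.24 (SE, with adjusted p = 0.958 by edgeR), and without TNTProx1 3 it was -0.24 ± 0.19 (SE, with adjusted p = 0.615 by edgeR). Without TNTProx1 4 to 6 it was 0.39 ± 0.25 (SE, with adjusted p = 0.401 by edgeR). The related thrombospondin genes Thbs1, Thbs2 and Thbs3 had log2 fold changes of 0.29, 0.04 and 0.21, or 0.47, 0.16 and 0.46 without TNTProx1 4 to 6, and none passed the test.

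Of the leucine-rich repeat proteins, Fmod (ENSMUSG00000041559.8), which binds collagen and takes part in the maturation of tendon fibrils, ran from 1355.3 through a median of 1595.5 to 2261.9 CPM in TNTProx1. In TNTSham it ran from 1267.3 through a median of 1527.4 to 1688.6 CPM. TNTProx1 1, 2 and 3, at 1699.8, 2120.8 and 2261.9 CPM, lay above every TNTSham library, while TNTProx1 4, 5 and 6, at 1479.4, 1491.2 and 1355.3 CPM, lay inside the TNTSham range. The share of all tested genes with TNTProx1 1 to 3 above every TNTSham library is not given here, so this split is a description only. The log2 fold change was 0.20 ± 0.14 (SE, with adjusted p = 0.589 by edgeR). Without TNTProx1 4 to 6 it was 0.43 ± 0.12 (SE, with adjusted p = 0.0875 by edgeR), the smallest adjusted p of the 7 genes in that fit, in which 21.4% of all tested genes had an unadjusted p under 0.05 and 0.0% were called. Without TNTProx1 3 it was 0.10 ± 0.13 (SE, with adjusted p = 0.767 by edgeR). Fmod was the steadiest of the 7 in TNTSham, with a coefficient of variation of 8.56%, smaller than in all but 13.4% of tested genes.

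Kera (ENSMUSG00000019932.9), a keratan sulfate proteoglycan that organizes collagen fibrils in the cornea, ran from 30.0 through a median of 46.2 to 83.7 CPM in TNTProx1. In TNTSham it ran from 52.5 through a median of 63.4 to 92.9 CPM. Of 6 TNTProx1 libraries 4 lay below every TNTSham library, at 30.0, 38.3, 43.7 and 48.6 CPM, and 2, TNTProx1 3 and 4 at 83.7 and 55.8 CPM, lay inside the TNTSham range. The share of all tested genes with as many TNTProx1 libraries below every TNTSham library is not given here, so this is a description only. The log2 fold change was -0.48 ± 0.21 (SE, with adjusted p = 0.364, unadjusted p = 0.0346 by edgeR), and 3.92% of tested genes had an unadjusted p under 0.05 in the lower direction. Without TNTProx1 3 it was -0.71 ± 0.17 (SE, with adjusted p = 0.179 by edgeR), and without TNTProx1 4 to 6 it was -0.30 ± 0.23 (SE, with adjusted p = 0.497 by edgeR). By limma voom with quality weights it was -0.18 ± 0.21 (SE, with adjusted p = 0.714 by limma). With 1 library left out it ran from -0.71 to -0.37, the last without TNTProx1 6. Set against Fmod in the same library, Kera was counted at 2.88 ± 0.784 reads per 100 reads of Fmod in TNTProx1 and 4.65 ± 1.01 in TNTSham (SD, n = 6 and 7). This ratio was chosen after the values were seen and was not tested. In it 4 TNTProx1 libraries lay below every TNTSham library, again as a description only.

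Chad (ENSMUSG00000039084.9), which binds collagen and integrins in cartilage, ran from 45.1 through a median of 64.9 to 105 CPM in TNTProx1. In TNTSham it ran from 49.1 through a median of 59.4 to 74.6 CPM. The TNTProx1 libraries reached past the TNTSham range at both ends, with 2 above it and 1 below. Its log2 fold change was 0.14 ± 0.17 (SE, with adjusted p = 0.762 by edgeR), and without TNTProx1 3 it was -0.04 ± 0.15 (SE, with adjusted p = 0.926 by edgeR). Without TNTProx1 4 to 6 it was 0.35 ± 0.17 (SE, with adjusted p = 0.277 by edgeR). Acsf2, the gene on the other strand, had 20.7 ± 5.84 CPM in TNTProx1 and 20.1 ± 2.32 CPM in TNTSham (SD, n = 6 and 7).

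**Figure D3:**
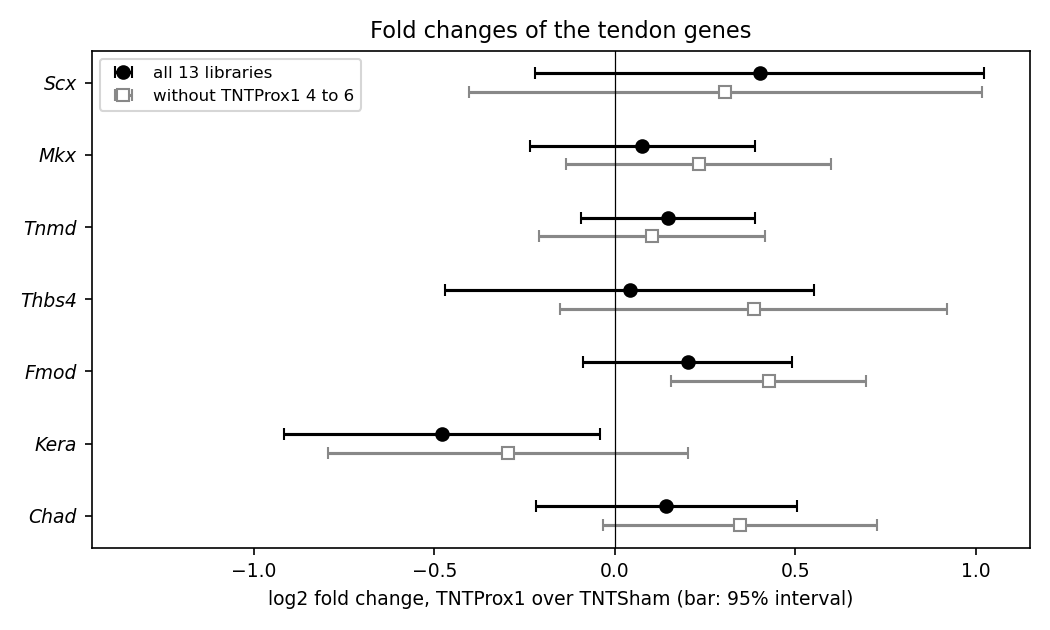
Log2 fold change of TNTProx1 over TNTSham for each tendon gene with its 95% interval, for all 13 libraries (black circles) and without TNTProx1 4 to 6 (open squares). With all libraries the interval of Kera alone leaves out 0, at -0.92 to -0.04, and without TNTProx1 4 to 6 that of Fmod alone does, at 0.16 to 0.69.

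TNTProx1 3 was the highest of 13 libraries in 5 of the 7 genes, and in 5.78% of all tested genes. Summed bone and cartilage markers and further tendon lists were high in the same library. The 10 bone markers summed to 1092.1 CPM in TNTProx1 3, within 543 to 1092.1 CPM in TNTProx1 and against 161 to 867 CPM in TNTSham. The 12 cartilage markers summed to 825 CPM in it, within 318 to 825 CPM in TNTProx1 and against 188 to 686 CPM in TNTSham. The 8 fibril collagen genes of tendon summed to 124340.1 CPM in it, within 43782.1 to 124340.1 CPM in TNTProx1 and against 33469.7 to 63751.7 CPM in TNTSham. TNTProx1 3 was also highest in summed tendon inducers and regulators (411 CPM), other leucine-rich proteoglycans (7764.2 CPM) and other tendon matrix proteins (12338.0 CPM). It was not highest in summed muscle, keratinocyte, dermal fibroblast, notochord and disc, or adipocyte markers. Of the tested cartilage markers only Col2a1 and Col11a2 were highest in it, and some bone markers were highest in other libraries. A sum follows the genes of highest level in its list. Lum, of the other leucine-rich proteoglycans, was highest in TNTProx1 4, and Krt19, of the notochord and disc markers, in TNTProx1 3. The part of bone or cartilage in the values of the 7 genes was not tested.

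The 7 genes differed in how they moved between libraries. Over the 7 TNTSham libraries alone, 14 of the 21 pairs had a positive Pearson r of log2(CPM + 0.5), with a median of 0.12 and a range of -0.40 to 0.93. Scx and Chad had r = 0.93 (exact permutation p = 0.00655, adjusted p = 0.0833 over 21 pairs) and Spearman rho = 0.71 (exact permutation p = 0.0881, adjusted p = 0.550). Without the 2 libraries farthest from the median of Scx, r was 0.78. Mkx and Thbs4 had r = 0.89 (exact permutation p = 0.00794, adjusted p = 0.0833) and rho = 0.71 (exact permutation p = 0.0881, adjusted p = 0.550), and r was 0.44 without the 2 libraries farthest in Mkx.

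No pair passed the adjustment in TNTSham. Over the 10 libraries without TNTProx1 4 to 6, 19 of 21 pairs were positive, at a median of 0.43. Without the 2 libraries farthest in the first gene of each pair the median was 0.35. Signs then turned in both directions. Tnmd and Thbs4 went from 0.24 to -0.72, and Kera and Fmod from -0.21 to 0.36. The share of positive pairs over all genes is not given here. The 19 of 21, like the 14 of 21 in TNTSham, is thus a description only. The pair of Scx and Chad had r = 0.87 (permutation p = 0.00109, adjusted p = 0.0130) and rho = 0.77 (permutation p = 0.0130, adjusted p = 0.148), with r = 0.85 without the 2 farthest libraries. Mkx and Thbs4 had r = 0.84 (permutation p = 0.00124, adjusted p = 0.0130) and rho = 0.74 (permutation p = 0.0172, adjusted p = 0.148), with r = 0.63 without the 2 farthest libraries. These were the 2 pairs that passed by Pearson r, none passed by rho, and 7 of the 10 libraries are the same TNTSham libraries as before. The resampling over 10 libraries moved values freely between TNTProx1 and TNTSham, so a difference between the groups can enter these p-values. Scx and Tnmd, the factor and the gene that depends on it, had r = 0.55 in TNTSham (exact permutation p = 0.205, adjusted p = 0.614) and rho = 0.46 (exact permutation p = 0.302, adjusted p = 0.577), with r = 0.88 without the 2 libraries farthest in Tnmd. Kera and Fmod, both small leucine-rich proteoglycans, had r = 0.04 in TNTSham (exact permutation p = 0.930, adjusted p = 0.930) and rho = -0.07 (exact permutation p = 0.906, adjusted p = 0.906), with r = 0.05 without the 2 libraries farthest in Kera.

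**Figure D4:**
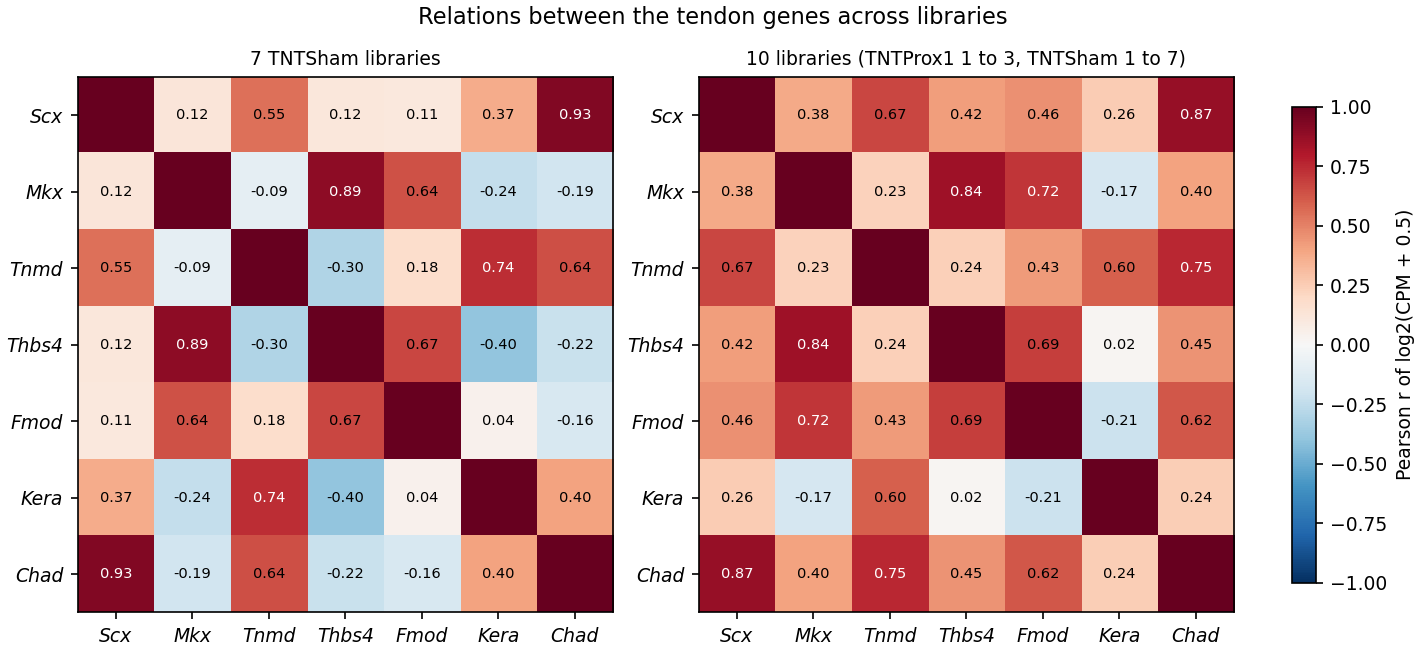
Pearson r of log2(CPM + 0.5) for each pair of tendon genes, over the 7 TNTSham libraries (left) and over 10 libraries without TNTProx1 4 to 6 (right). Scx with Chad and Mkx with Thbs4 are the highest pairs in both, at 0.93 and 0.89 on the left and 0.87 and 0.84 on the right.

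Genes whose level followed the 7 most closely were sought over the same 10 libraries among 20213 others, as a description with no test, since the highest of so many values of r is large in any case. Fmod was followed by B3gnt9 (r = 0.97), Srgap3 (r = 0.97) and Pdgfrb (r = 0.97), the last a receptor of mural cells and fibroblasts. Mkx was followed by Cog2 (r = 0.97), Taok2 (r = 0.96) and Numbl (r = 0.96), and Thbs4 by Gm43921 (r = 0.96), Kdm4a (r = 0.95) and Gm12987 (r = 0.93). Kera was followed by Fam110a (r = 0.95), Tbc1d25 (r = 0.90) and Papss1 (r = 0.90), an enzyme that makes the sulfate donor used to sulfate proteoglycans. Scx was followed by Helb (r = 0.93), Ppp1r14a (r = 0.92) and Fpgs (r = 0.90), and Chad by Prr7 (r = 0.92), Hexim1 (r = 0.91) and Emc10 (r = 0.90). Among the genes that followed Tnmd were Gm45080 (r = 0.80) and St6gal2 (r = 0.78). The average of the 7 standardized genes was followed by Sardh (r = 0.88), Vasn (r = 0.87) and Smtn (r = 0.87).

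Other genes of tendon were read from lists beside the 7. In each of these lists 0 genes passed the edgeR test in either direction, the same background of 0.0% as over all genes. Of all tested genes 47.7% had a fold above 1. Among 14 inducers and regulators of tendon 11 were tested, 6 were higher and 5 lower in TNTProx1, with 0.02 as the median log2 fold change and 0.20 without TNTProx1 4 to 6. Tgfb3, a growth factor that induces tendon progenitors, had 107 ± 14.8 CPM in TNTProx1 and 80.7 ± 17.1 CPM in TNTSham (SD, n = 6 and 7), a log2 fold change of 0.41 ± 0.14 (SE, with adjusted p = 0.251 by edgeR). Egr1, a stretch-responsive transcription factor of tendon, had 91.0 ± 18.0 CPM in TNTProx1 and 89.9 ± 30.9 CPM in TNTSham. Gdf6, a growth factor of joints and tendons, had a log2 fold change of 0.81 ± 0.52 (SE, with adjusted p = 0.574 by edgeR), at under 2 CPM in every library. Fgf8, a signal for tendon progenitors in the embryo, was at 0 in all 13 libraries, which allows up to 3 counts in a library.

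Of 14 leucine-rich proteoglycans outside the 7, 11 were higher and 3 lower, and their log2 fold changes had a median of 0.16. Tsku, the one of smallest p, had 30.9 ± 4.32 CPM in TNTProx1 and 22.1 ± 2.73 CPM in TNTSham (SD, n = 6 and 7). Its log2 fold change was 0.49 ± 0.11 (SE, with adjusted p = 0.119 by edgeR), and DESeq2 called it higher (adjusted p = 0.0154). Tsku was the 1 gene of these 14 that DESeq2 called, where 2.13% of the genes it tested were called higher. Lum, lumican, which like Kera carries keratan sulfate in the cornea, had 1359.8 ± 192 CPM in TNTProx1 and 1056.8 ± 168 CPM in TNTSham (SD, n = 6 and 7), a log2 fold change of 0.36 ± 0.13 (SE, with adjusted p = 0.276 by edgeR). Lum and Kera thus had fitted changes of opposite sign, and that difference was not tested.

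All 8 fibril collagens of tendon had a fold above 1, and their log2 fold changes had a median of 0.35, or 0.63 without TNTProx1 4 to 6. Col1a2 and Col5a1, chains of types I and V collagen, had log2 fold changes of 0.55 ± 0.25 and 0.52 ± 0.23 (SE, with adjusted p = 0.398 and 0.383 by edgeR), and Col1a1 had 0.64 ± 0.31 (SE). Of 19 other tendon matrix proteins 18 were above 1, at a median of 0.36. Clec11a, a secreted growth factor of bone-forming cells, had 37.5 ± 6.53 CPM in TNTProx1 and 23.1 ± 5.18 CPM in TNTSham (SD, n = 6 and 7). Its log2 fold change was 0.70 ± 0.16 (SE, with adjusted p = 0.104 by edgeR), and DESeq2 called it higher (adjusted p = 0.00852). Clec11a was the 1 gene of these 19 that DESeq2 called, where 2.13% of the genes it tested were called higher. Comp, the cartilage oligomeric thrombospondin, had a log2 fold change of 0.36 ± 0.12 and Tnc, tenascin C, of 0.50 ± 0.23 (SE, with adjusted p = 0.244 and 0.393 by edgeR).

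**Figure D5:**
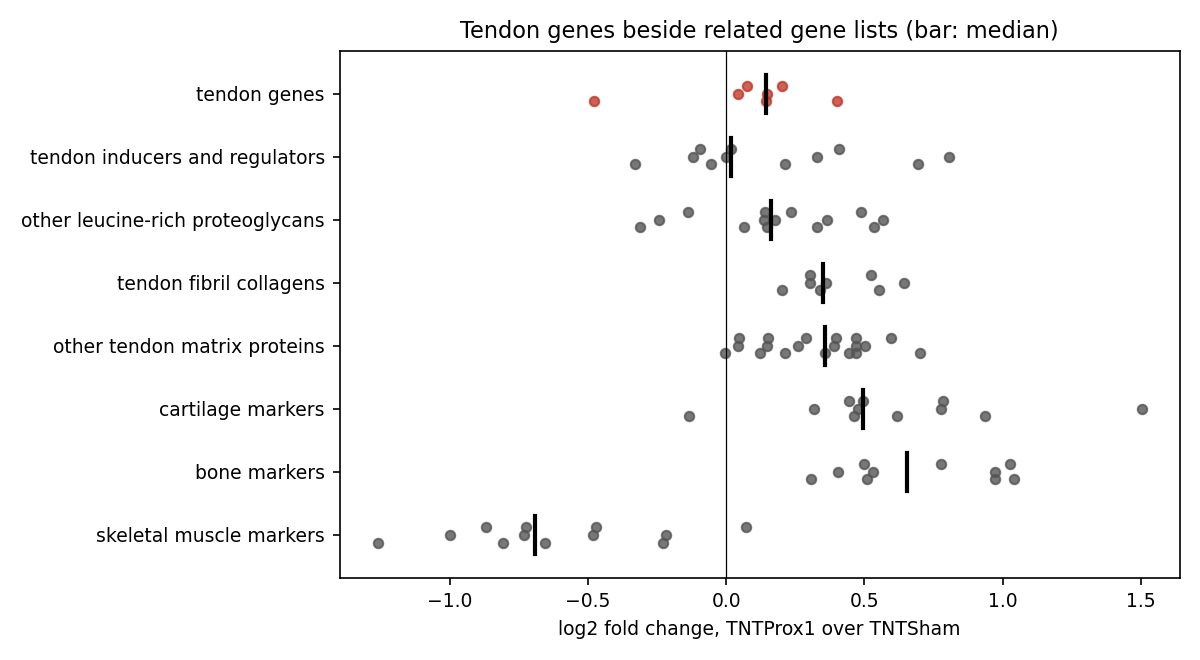
Log2 fold change of TNTProx1 over TNTSham of each tested gene, 1 point per gene, for the 7 tendon genes (red) and 7 related lists, with the median as a bar. The median is 0.14 for the tendon genes, 0.35 for the fibril collagens, 0.65 for bone markers and -0.69 for skeletal muscle markers.

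Markers of the other tissues in a tail sample moved by different amounts beside the 7 genes. The share of all tested genes with a fold above 1 was 47.7%. Bone markers were above 1 in 10 of 10 tested genes, with 0.65 as the median log2 fold change (1.04 without TNTProx1 4 to 6), and Sp7 and Alpl, genes of osteoblasts, had 0.97 ± 0.29 and 1.03 ± 0.38 (SE, with adjusted p = 0.173 and 0.281 by edgeR). Cartilage markers were above 1 in 10 of 11 at a median of 0.50 (0.78 without TNTProx1 4 to 6), with Col11a2 and Matn3 at 0.94 ± 0.31 and 0.48 ± 0.20 and the defining Col2a1 at 0.78 ± 0.57 (SE, with adjusted p = 0.217, 0.358 and 0.622 by edgeR). Without TNTProx1 4 to 6 these were 1.14, 0.73 and 1.42. Skeletal muscle markers were below 1 in 11 of 12 at a median of -0.69, or -0.94 without TNTProx1 4 to 6. They summed to 4644.0 to 12050.5 CPM in TNTProx1 and 9500.5 to 16406.7 CPM in TNTSham. Acta1, the 1 gene above 1, was at 0.07 with all libraries and at -0.88 without TNTProx1 4 to 6. Of the muscle genes, Tnnc2 and Neb had -1.26 ± 0.31 and -0.81 ± 0.22 (SE, with adjusted p = 0.123 and 0.140 by edgeR). Without TNTProx1 4 to 6 these were -1.57 and -0.63. With all libraries DESeq2 called 4 of 12 lower, against 0.783% of the genes it tested.

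Dermal fibroblast markers were above 1 in 8 of 8 at a median of 0.29 (0.17 without TNTProx1 4 to 6), and the genes of smallest p were Twist2, at 0.65 ± 0.23 (0.40 without TNTProx1 4 to 6), and Lum, at 0.36 ± 0.13 (0.21 without them). Without TNTProx1 4 to 6 Crabp1 went from 0.79 to -0.16, the only gene of this list to turn sign. Keratinocyte markers were below 1 in 6 of 7 at a median of -0.32, and at -0.82 without TNTProx1 4 to 6, where Krt14, the 1 gene above 1, was at -0.84 against 0.21 with all libraries. The genes of smallest p were Trp63 at -0.47 ± 0.25 and Dsg1a at -0.36 ± 0.28 (SE), or -0.82 and -0.84 without TNTProx1 4 to 6. The markers summed to 5740.5 to 55706.5 CPM in TNTProx1 and 26276.5 to 40883.8 CPM in TNTSham. Notochord and disc markers were above 1 in 4 of 5 at a median of 0.42, which turned to -0.03 without TNTProx1 4 to 6. Krt18 was at 1.47 ± 0.46 and Krt19 at 0.44 ± 0.57 (SE), or 0.36 and 0.98 without TNTProx1 4 to 6, and the defining Noto was at 0 in all 13 libraries. Both keratin genes were low, with at most 2.33 CPM of Krt18 and 6.3 CPM of Krt19 in any library. Adipocyte markers were above 1 in 2 of 5 at a median of -0.19, with Plin1 at 0.32 ± 0.25 and Lep at -0.44 ± 0.40 (SE), or 0.07 and -0.38 without TNTProx1 4 to 6. The part of these tissues in the values of the 7 genes was not tested.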

How the data were processed

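RNA of 13 tail samples was sequenced after removal of ribosomal RNA, as stranded paired-end libraries, per the labels' protocols. The authors deposited unnormalized counts for each gene, with a column per sample. The submitters' processing notes name the build GRCm39 and the tools fastp 0.20.1, HISAT2 2.2.1, featureCounts, Subread 2.0.2, DESeq2 1.34.0 and R 4.1.2, without saying what each did. No source used here states the strand setting, the annotation release or how multiply aligned reads were treated.

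From these counts the following was computed. Of 55357 genes, 52081 matched GENCODE M21 (build GRCm38) by identifier, which gave symbols, gene classes and exon lengths only. Counts were scaled with edgeR's TMM factors, filtered by filterByExpr to 22876 genes and tested with the quasi-likelihood F test of edgeR 4.0.16 under R 4.3.3 on the group alone, with Benjamini-Hochberg adjustment over all tested genes and a threshold of 0.05. Fold changes are TNTProx1 over TNTSham and 95% intervals use the test's degrees of freedom, cover 1 gene each and are not adjusted. Pairs of genes were compared by an exact two-sided permutation test over the 7 TNTSham libraries and by 100000 resamples over 10 libraries, on log2(CPM + 0.5). The alternatives were DESeq2 1.42.0, 2 other scalings, 2 other filters, robust quasi-likelihood, limma 3.58.1 (voom with quality weights, trend), leaving out each library, and leaving out TNTProx1 4 to 6. The fits were also run on simulated counts. These did not carry the distance of TNTProx1 4 to 6 from the other libraries, so they cannot show how the fits behave under it.

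The members, the 11 further lists and the choice to leave out TNTProx1 4 to 6 were made with earlier results of these data known. The text names all 7 members, the 2 genes of smallest p in each further list, the level references Tgfb3, Col1a1, Col2a1, Comp and Tnc, and the 3 genes most like each member, of which 1 is not reported here. Genes outside this rule (Egr1, Fgf8, Noto, Krt14, Crabp1, Acta1, Prox1, Malat1, Xist, Bop1, Acsf2, Thbs1, Thbs2 and Thbs3) were chosen after their values were seen. Intervals cover the spread between samples, and the depth of 31 to 156 counts on Scx limits that gene most.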

Additional observations from a re-analysis of the deposited data

Results flagged for a closer look

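Thbs4 stood at 1583.5 CPM in TNTProx1 3, apart from the other 5 TNTProx1 libraries at 532 to 865 CPM. The 12 cartilage markers summed to 686 CPM in TNTSham 3, apart from the other 6 TNTSham libraries at 188 to 386 CPM. These were 2 of 38 groups of values examined for a library far from the rest, and chance gives about 1 in 20.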

How the results depend on the processing

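None of the 7 genes was called under any of the 9 other settings or with any 1 of 13 libraries left out, and the smallest adjusted p of a member was 0.0600, for Fmod by limma voom with quality weights. Over all genes, edgeR called 0, DESeq2 561, limma voom with quality weights 573 and edgeR with no low-count filter 1, and leaving out 1 library gave 0 to 589 calls (34 without TNTSham 5, 589 without TNTProx1 1, 0 without each other one). The median log2 fold change of the members, 0.14, was 0.39 by limma voom with quality weights and 0.31 without TNTProx1 4 to 6, and ran from -0.022 (without TNTProx1 3) to 0.19 with 1 library left out. The sign turned in 6 of 154 member values. Thbs4 was -0.01 by limma trend and ran from -0.24 to 0.15 with 1 library left out (-0.24 without TNTProx1 3, -0.05 without TNTSham 1, -0.02 without TNTSham 2). Mkx ran from -0.022 to 0.14 and Chad from -0.036 to 0.24, both lowest without TNTProx1 3. Tnmd, Scx, Kera and Fmod kept their sign in all settings run. Kera was nearest to no change by limma voom with quality weights, at -0.18, and ran from -0.71 to -0.37 with 1 library left out. In TNTSham 0 pairs of members passed the adjustment, and over 10 libraries 2 did. The cause of these shifts was not tested. No paired analysis was possible because the replicate numbers follow accession order and pair no samples. The depth on Scx, 31 to 156 counts per library, limits what can be seen of that gene.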
